A study of Mus musculus with 18 samples.

Results

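The genes described here encode the enzymes of the tricarboxylic acid (TCA) cycle with its closest side reactions, and those that break down leucine, valine and isoleucine, the branched-chain amino acids. They were given as a list of 38 names, and all 38 were found by symbol among the 48709 genes of the deposited count table. 20 of them belong to the TCA cycle and its side reactions and 18 to branched-chain amino acid breakdown. The list was not chosen by a threshold on these libraries, but earlier results of these data were known when it was drawn up.

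RNA came from the left ventricle of male wild-type C57BL/6J mice, 12 weeks old at the start, in 3 groups of 6 libraries. The isoproterenol and minocycline group was given isoproterenol, a beta-adrenergic agonist that loads the heart, by osmotic pump at 30 mg/kg/day, together with daily intraperitoneal injections of the tetracycline antibiotic minocycline at 50 mg/kg. The isoproterenol group had the same pump dose with saline injections, and the control group had saline by both routes; all were sampled after 21 days. A group given minocycline without isoproterenol was not analysed here, so an effect of the antibiotic alone cannot be told apart from one on the response to isoproterenol. All animals were male and of 1 strain, and the protocol speaks of pooled RNA, so whether a library is 1 animal is uncertain and p-values measure the spread between libraries.

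The TCA cycle runs in the mitochondrial matrix, where it oxidises acetyl-CoA from fatty acids, carbohydrate and amino acids and passes the electrons to the respiratory chain; the heart depends on it for most of its ATP. Branched-chain amino acids lose their amino group to 2-oxoglutarate, and the resulting ketoacids are oxidised by a dehydrogenase complex, BCKDH, in the step that commits them to breakdown. A kinase switches that complex off and a phosphatase switches it on. Carbon from leucine then ends as acetyl-CoA and acetoacetate, while carbon from valine and part of isoleucine passes through propionyl-CoA into the TCA cycle as succinyl-CoA.

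The libraries held 14203041 to 22688664 counts. All 38 genes passed the filter on low counts, with 13281 genes tested in all, and the smallest count of any of the 38 in any library was 235. Levels are given as CPM, the counts divided by the TMM-scaled library size, in each group as lowest, median and highest of 6 libraries. A gene is said to have risen or fallen, or to be called, when its adjusted p was under 0.05 by the quasi-likelihood test of edgeR, adjusted by Benjamini-Hochberg over all genes tested. Mitochondrially encoded genes held 40.1 to 47.7% of each library's counts. Heart muscle markers stood far above those of the other cell types in every library. The sum of 9 cardiomyocyte markers was 53781 to 64317 CPM with isoproterenol and minocycline, 54804 to 59278 with isoproterenol and 64450 to 69566 in control. The 6 adipocyte markers summed to at most 13.4 CPM. Of the 9 cardiomyocyte markers, Myh6, Myl2 and Ckm fell in both treated groups relative to control. Myh6 made the largest part of the sum, with means of 24925 CPM with isoproterenol and minocycline, 23341 with isoproterenol and 29933 in control. The means of Actn2, Tnnt2, Tnni3, Pln and Mb were also lower in both treated groups, but not called. Ryr2, not called either, had means of 916 CPM with isoproterenol and minocycline, 1057 with isoproterenol and 914 in control. Of 6 macrophage markers 5 rose in each treated group, and of 7 fibroblast markers 6 rose with isoproterenol and minocycline and 3 with isoproterenol. Of 5 endothelial markers 1 rose with isoproterenol and minocycline and none with isoproterenol, and none of 3 atrial markers was called, although their sum varied between 23.0 and 484 CPM over the libraries. Of 4 genes listed as skeletal muscle markers 1 fell in each treated group, Acta1, and Myh4 had no counts. In control Acta1 had 245 to 1228 CPM, while Mylpf had at most 1.01 and Myh1 at most 0.0497 CPM. Mylpf averaged 0.490 CPM with isoproterenol and minocycline, 0.390 with isoproterenol and 0.659 in control, and was not called. Whether the fall of Acta1 reflects skeletal muscle content was not tested. In bulk tissue, fewer cardiomyocytes and less of an mRNA per cardiomyocyte cannot be told apart, and the part of these shifts in the results was not tested.

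Relative to control, every call among the 38 genes was lower. With isoproterenol and minocycline 23 of 38 fell and none rose, where 9.05% of all genes tested were called lower, 10.2% higher and 19.3% in either direction. With isoproterenol 16 of 38 fell and none rose, where 5.62% of all genes were called lower, 6.94% higher and 12.6% in either direction. An unadjusted p under 0.05 was reached by 30 of 38 with isoproterenol and minocycline, where 33.5% of all genes did so, and by 21 of 38 with isoproterenol, where 27.6% did. Among the 4133 genes with at least the mean CPM of the lowest of the 38, the share called lower was 16.1% with isoproterenol and minocycline and 10.5% with isoproterenol. The median log2 fold change over the 38 was -0.26 with isoproterenol and minocycline, with a range of -0.86 to -0.02, and -0.19 with isoproterenol, with a range of -0.68 to -0.03; over all genes the median was 0.0035 with isoproterenol and minocycline and 0.0011 with isoproterenol. All 38 estimates were below 0 in both comparisons, which share the control libraries and so are not separate evidence. The groups did not overlap, with control higher, for 12 of 38 genes with isoproterenol and minocycline, where 3.59% of all genes did so, and for 13 of 38 with isoproterenol, where 3.25% did.

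These directions are relative to the bulk of the transcriptome. With library totals in place of TMM factors, the median of all genes moved to 0.11 with isoproterenol and minocycline and 0.14 with isoproterenol. On that scale 35 of 38 estimates were below 0 and 14 called lower with isoproterenol and minocycline, where 4.1% of all genes were called lower. With isoproterenol 25 of 38 were below 0 and 7 called lower (Cs, Bcat2, Bckdha, Dbt, Ivd, Mccc2 and Pccb), where 1.83% of all genes were called lower. In both, 38 of 38 lay below the median of all genes. The calls with isoproterenol also numbered 10 without Control 4 or without Control 6, and 5 without the 4 libraries that had over 80 CPM of the atrial gene Myl7 (Isoproterenol and minocycline 2, Isoproterenol 5, Control 5 and Control 6); those 5 were Suclg1, Bcat2, Bckdha, Mccc2 and Pccb.

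**Figure D1:**
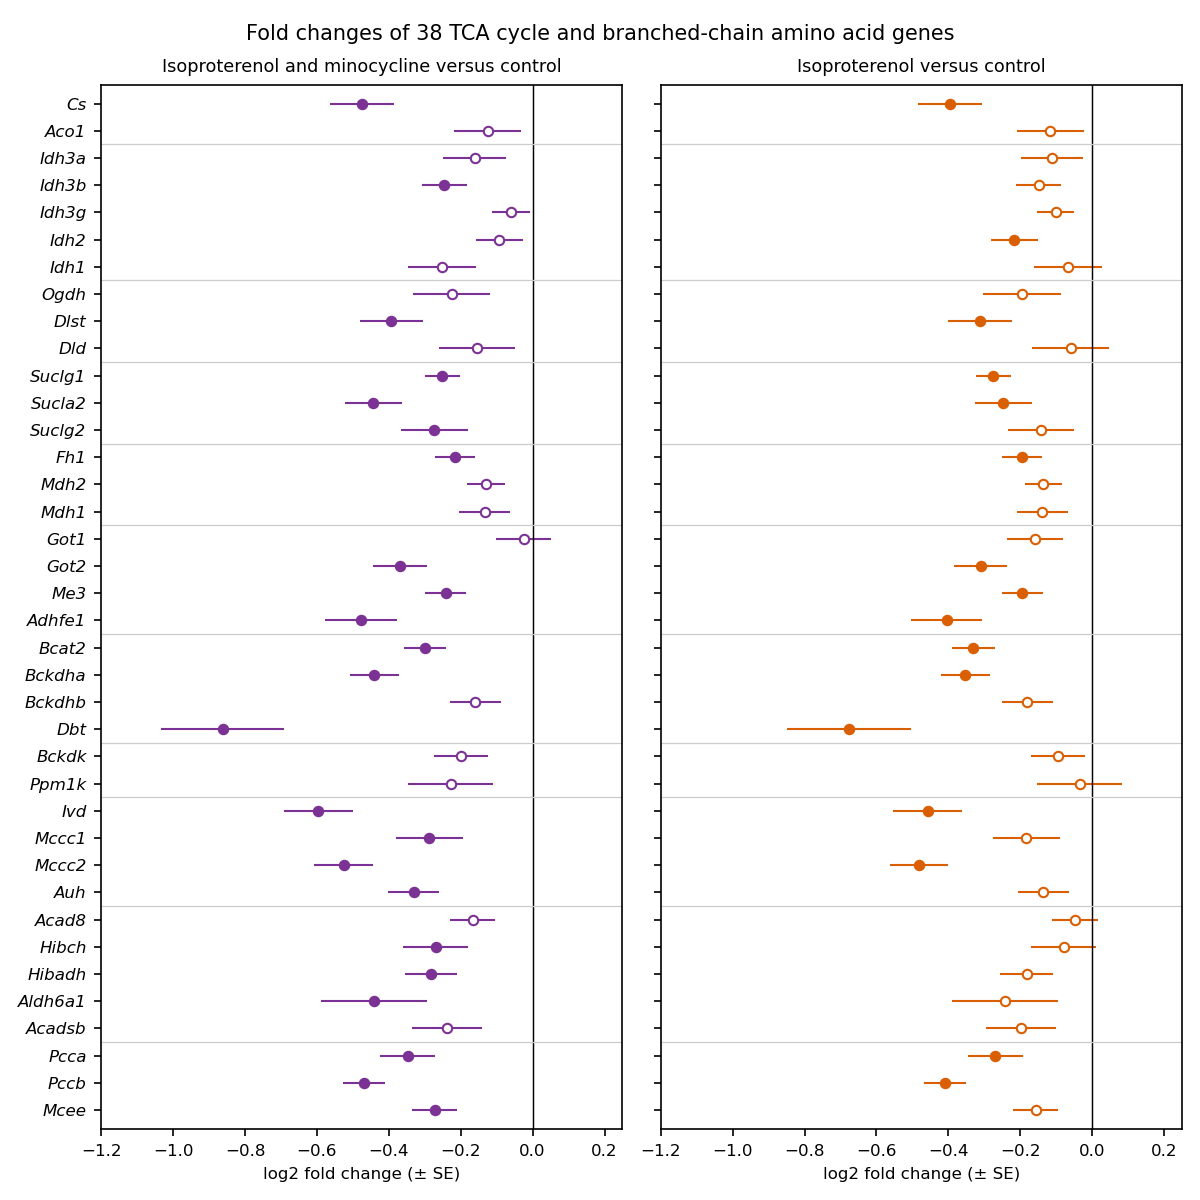
Log2 fold change (x axis, with its standard error as a bar) of each of the 38 genes, in order of enzyme step, in isoproterenol and minocycline versus control (left) and isoproterenol versus control (right). Filled circles are genes with an adjusted p under 0.05, 23 on the left and 16 on the right, open circles are the others; all points lie left of 0, and Dbt lies farthest, at -0.86 on the left and -0.68 on the right.

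Per unit of transcript length, the most abundant of these mRNAs in control hearts were those of Idh2 and the malate dehydrogenases. The authors' deposited TPM averaged 847 ± 43.4 for Idh2, 790.04 ± 60.8 for Mdh1, 699 ± 51.1 for Mdh2 and 565 ± 49.3 for Cs (SD, n = 6 control libraries). The mean ± SD intervals of Idh2 and Mdh1 overlapped, as did those of Mdh1 and Mdh2, while that of Cs lay wholly below that of Mdh2. The lowest were Me3 at 6.08 ± 0.450 and Acad8 at 8.44 ± 0.377 TPM. All of the 12 highest TPM means belonged to genes of the TCA cycle group, and Bckdha at 155 ± 9.63 TPM was the highest of the branched-chain genes.

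At the entry to the cycle, citrate synthase fell in both treated groups. Cs, which joins acetyl-CoA to oxaloacetate (chr10:128337832-128362479, plus strand, in the deposited table), had 600.5, 829 and 953 CPM with isoproterenol and minocycline, 783, 847 and 889 with isoproterenol, and 941, 1142 and 1195 in control. Every isoproterenol library was below every control library, and with isoproterenol and minocycline only the highest library passed the lowest control. Its log2 fold change ± SE was -0.48 ± 0.0897 (adjusted p = 0.000949) with isoproterenol and minocycline and -0.40 ± 0.0897 (adjusted p = 0.00599) with isoproterenol. Aco1, the cytosolic aconitase that also acts as an iron regulatory protein, overlapped in all groups at 20.7, 25.4 and 32.2 CPM with isoproterenol and minocycline, 23.5, 25.9 and 31.3 with isoproterenol, and 24.6, 28.5 and 32.3 in control; it passed in neither comparison (adjusted p = 0.369 with isoproterenol and minocycline and 0.451 with isoproterenol).

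As Cs is the entry enzyme and fell in both treated groups, its promoter is shown: 250 bases upstream of the RefSeq start on GRCm38.p6, chr10:128337477-128337726, plus strand, 5′ to 3′. Capitals mark GC boxes (GGGCGG on either strand) and CCAAT boxes (CCAAT on either strand).
Cs: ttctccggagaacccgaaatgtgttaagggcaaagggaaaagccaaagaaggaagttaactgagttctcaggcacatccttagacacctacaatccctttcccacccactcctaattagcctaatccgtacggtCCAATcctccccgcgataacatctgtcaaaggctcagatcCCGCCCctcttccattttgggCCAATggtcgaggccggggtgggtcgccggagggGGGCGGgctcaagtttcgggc
It holds 2 GC boxes and 2 CCAAT boxes. Of 32851 promoter windows of that length in the table, 32.7% hold a GC box and 33.8% a CCAAT box; of the 45 windows of the 35 listed genes with an entry, 23 (51.1%) hold a GC box and 26 (57.8%) a CCAAT box. The estrogen-related receptor element AAGGTCA was present in 4.08% of all windows and in 1 of the 45, that of Got1, and the cyclic AMP response element TGACGTCA in 1.55% of all windows and in 4 of the 45, which belong to Ogdh and Mdh2. These are matches of letters only and were not set against any binding data.

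Of 5 isocitrate dehydrogenase genes, 1 fell in each comparison, and not the same one. Idh3b, a subunit of the NAD-dependent mitochondrial enzyme, had 358, 422 and 474 CPM with isoproterenol and minocycline, 428, 449.9 and 476 with isoproterenol, and 458, 511 and 537 in control. It fell with isoproterenol and minocycline (-0.25 ± 0.0629, adjusted p = 0.00928), while the isoproterenol estimate was -0.15 ± 0.0628, adjusted p = 0.126. Idh2, the NADP-dependent mitochondrial enzyme, had 1214, 1437 and 1622 CPM with isoproterenol and minocycline, 1222, 1270.1 and 1497 with isoproterenol, and 1478, 1522 and 1572 in control. The isoproterenol libraries, 5 of which lay below every control, gave -0.22 ± 0.0663, adjusted p = 0.0357, and the isoproterenol and minocycline libraries spanned the control range at -0.09 ± 0.0663, adjusted p = 0.346. Without any 1 of Isoproterenol 1, 2, 3 or 5 or Control 1, 3, 4 or 6 the Idh2 call was lost, at adjusted p = 0.0530 to 0.0743. The Idh3b call with isoproterenol and minocycline was lost without libraries 4 and 6 of that group (-0.17, adjusted p = 0.0565), without the 4 Myl7 libraries (-0.24, adjusted p = 0.0590) and on library totals (-0.14, adjusted p = 0.0878). Neither difference between the treated groups passed (adjusted p = 0.744 for Idh3b and 0.696 for Idh2). The catalytic subunit Idh3a had 284, 394 and 431 CPM with isoproterenol and minocycline, 341, 388 and 418 with isoproterenol, and 364, 426 and 447 in control, the regulatory subunit Idh3g 366, 393 and 429 CPM with isoproterenol and minocycline, 369, 385 and 414 with isoproterenol, and 394, 418 and 432 in control, and the cytosolic Idh1 23.5, 30.4 and 32.6 CPM with isoproterenol and minocycline, 28.0, 32.2 and 43.1 with isoproterenol, and 31.7, 34.7 and 40.7 in control. All 3 overlapped control in both treated groups and none passed, with adjusted p-values of 0.0659 to 0.444 with isoproterenol and minocycline and 0.21 to 0.696 with isoproterenol.

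The 2-oxoglutarate dehydrogenase complex showed a call in 1 of its 3 components. Dlst, the E2 core that carries the succinyl group, had 302, 420.5 and 473 CPM with isoproterenol and minocycline, 394, 422 and 470.2 with isoproterenol, and 463, 535 and 565 in control. Its log2 fold change was -0.39 ± 0.0887 (adjusted p = 0.00404) with isoproterenol and minocycline and -0.31 ± 0.0886 (adjusted p = 0.0248) with isoproterenol; the second call was lost without Isoproterenol 3, Isoproterenol 5, Control 4 or Control 6, at adjusted p = 0.0520 to 0.0558. Ogdh, the E1 component, had 1111, 1757 and 1956 CPM with isoproterenol and minocycline, 1451, 1719 and 1775 with isoproterenol, and 1791, 1822 and 2072 in control. Its isoproterenol libraries all lay just below the controls, but the estimate of -0.20 ± 0.107, adjusted p = 0.249 did not pass, and with isoproterenol and minocycline it was -0.23 ± 0.107, adjusted p = 0.146. Dld, the E3 component shared with the other ketoacid dehydrogenases, overlapped in every group at 190.4, 262 and 314 CPM with isoproterenol and minocycline, 232, 281 and 302 with isoproterenol, and 239.6, 291 and 311 in control, with adjusted p-values of 0.329 with isoproterenol and minocycline and 0.765 with isoproterenol.

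Succinyl-CoA ligase was the TCA step with a call in all of its genes with isoproterenol and minocycline, 3 of 3; with isoproterenol 2 of 3 were called. Suclg1, the alpha subunit common to both forms of the enzyme, had 235, 256 and 264 CPM with isoproterenol and minocycline, 235, 246 and 268 with isoproterenol, and 287, 297 and 317 in control. Both treated groups lay wholly below control, with log2 fold changes of -0.25 ± 0.0477 (adjusted p = 0.001) with isoproterenol and minocycline and -0.27 ± 0.0478 (adjusted p = 0.000678) with isoproterenol. Sucla2, the ADP-forming beta subunit, had 249, 278 and 335 CPM with isoproterenol and minocycline, 283, 336 and 358 with isoproterenol, and 352, 398 and 419 in control. With isoproterenol and minocycline no library reached the control range (-0.44 ± 0.0795, adjusted p = 0.000574); with isoproterenol the highest did (-0.25 ± 0.0794, adjusted p = 0.0443), and that call was lost on leaving out any 1 of 11 libraries, at adjusted p = 0.0519 to 0.103 (Isoproterenol and minocycline 1, Isoproterenol 1, 2, 3, 5 and 6, and Control 1, 3, 4, 5 and 6). The Sucla2 call with isoproterenol was also lost without the filter on low counts. Suclg2, the GDP-forming beta subunit, had 79.7, 108 and 117 CPM with isoproterenol and minocycline, 99.6, 113 and 123 with isoproterenol, and 109, 126 and 132 in control. It was called with isoproterenol and minocycline (-0.27 ± 0.0922, adjusted p = 0.0423), a call lost without Isoproterenol and minocycline 2, 4 or 6 or Control 1, 3, 4, 5 or 6 at adjusted p = 0.0601 to 0.102, and not with isoproterenol (-0.14 ± 0.0922, adjusted p = 0.335).

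Between fumarate and oxaloacetate, fumarase fell and the malate dehydrogenases did not pass. Fh1, fumarate hydratase, had 227, 263 and 289 CPM with isoproterenol and minocycline, 256, 265 and 272 with isoproterenol, and 285, 303 and 323 in control. Isoproterenol and control did not overlap, with -0.19 ± 0.0547, adjusted p = 0.0232, a call lost without Control 4 or Control 6 (adjusted p = 0.0576 to 0.0587); isoproterenol and minocycline gave -0.22 ± 0.0547, adjusted p = 0.00867, a call lost without the 4 Myl7 libraries (-0.19, adjusted p = 0.0784) and on library totals (-0.11, adjusted p = 0.178). The mitochondrial Mdh2 had 881, 944 and 1014 CPM with isoproterenol and minocycline, 864, 936 and 1024 with isoproterenol, and 968, 1017 and 1096 in control, and the cytosolic Mdh1 had 1056, 1336 and 1418 CPM with isoproterenol and minocycline, 1174, 1295 and 1366 with isoproterenol, and 1282, 1440.0 and 1507 in control. Their estimates were all between -0.14 and -0.13, with adjusted p-values of 0.083 with isoproterenol and minocycline and 0.0872 with isoproterenol for Mdh2 and 0.192 with isoproterenol and minocycline and 0.21 with isoproterenol for Mdh1. By DESeq2 Mdh2 was called in both, at adjusted p = 0.0399 with isoproterenol and minocycline and 0.0347 with isoproterenol.

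**Figure D2:**
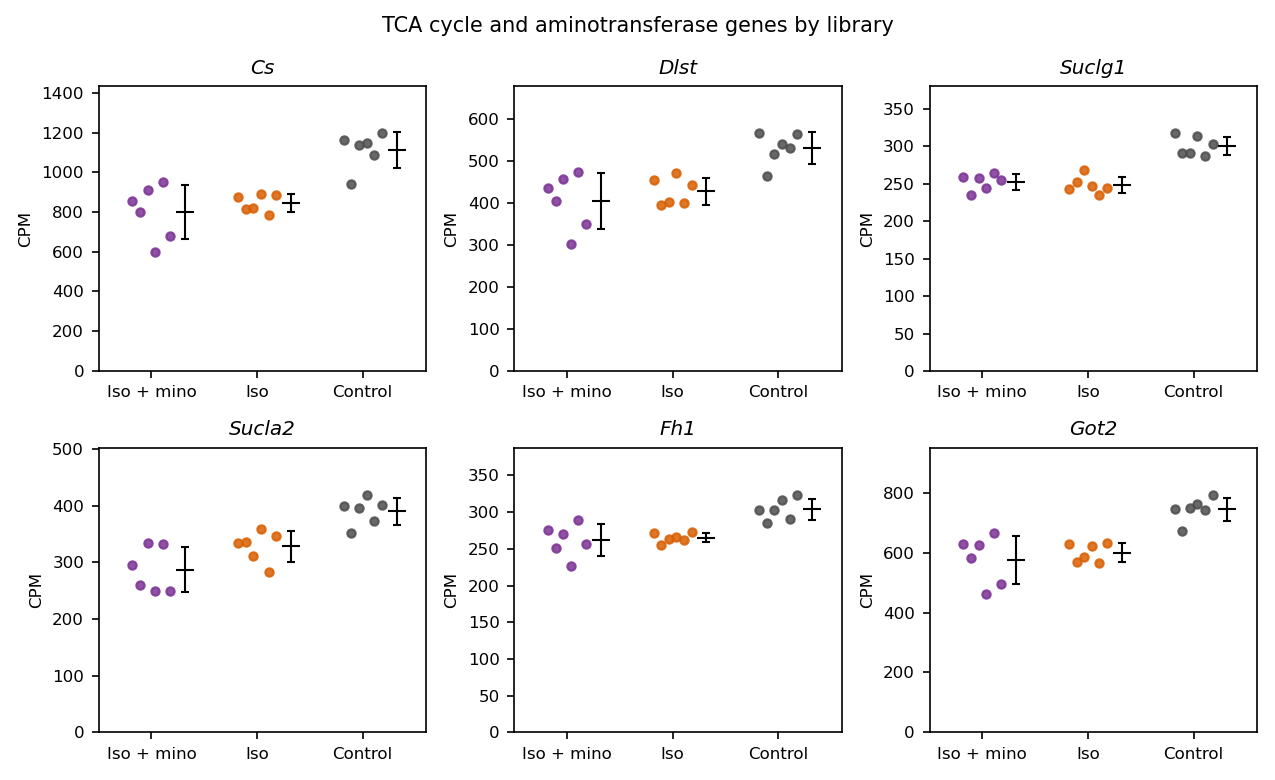
CPM in each library (points; y axis starts at 0) of 6 TCA cycle and aminotransferase genes in isoproterenol and minocycline, isoproterenol and control, with the mean and SD of 6 libraries beside each group. For Cs, Suclg1, Fh1 and Got2 every isoproterenol library lies below every control library, and the lowest isoproterenol and minocycline library is 4 for all of the 6 genes but Suclg1, where it is library 2.

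The aspartate aminotransferases work with the malate dehydrogenases in the malate-aspartate shuttle, which carries reducing equivalents into mitochondria. Got2, the mitochondrial form (chr8:95864134-95888547, minus strand), had 462, 604 and 664 CPM with isoproterenol and minocycline, 564, 604 and 631 with isoproterenol, and 673, 747 and 792 in control. Both treated groups lay wholly below control, with log2 fold changes of -0.37 ± 0.0750 (adjusted p = 0.00177) with isoproterenol and minocycline and -0.31 ± 0.0750 (adjusted p = 0.00917) with isoproterenol. Got1, the cytosolic form (chr19:43499752-43524605, minus strand), had 579.9, 728 and 846 CPM with isoproterenol and minocycline, 607, 652 and 684 with isoproterenol, and 655, 733 and 779 in control. It passed in neither comparison, at -0.02 ± 0.0768 (adjusted p = 0.855) with isoproterenol and minocycline and -0.16 ± 0.0769 (adjusted p = 0.182) with isoproterenol, and all groups overlapped.

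The ratio of Got1 to Got2 counts within a library, which does not depend on the scaling between libraries, differed between all 3 groups. It was 1.2, 1.24 and 1.27 with isoproterenol and minocycline, 1.0, 1.09 and 1.15 with isoproterenol, and 0.909, 0.97 and 1.04 in control. The isoproterenol and minocycline libraries lay wholly above the others, and the isoproterenol range met the control range only at its lower end. The mean log2 ratio was higher by 0.19 in isoproterenol and minocycline than in isoproterenol (exact permutation p = 0.00216, 0.013 when adjusted over 30 ratio tests). It was higher than in control by 0.34 with isoproterenol and minocycline (exact permutation p = 0.00216, adjusted 0.013) and by 0.15 with isoproterenol (exact permutation p = 0.00649, adjusted 0.0216). The smallest p that regroupings of 6 against 6 libraries can give is 0.00216. Between the treated groups the single-gene estimates were 0.13 ± 0.0769 for Got1 and -0.06 ± 0.0749 for Got2 (SE), neither called. Without isoproterenol and minocycline libraries 4 and 6 the difference between the treated groups was 0.19 (adjusted p = 0.0204); without the 4 libraries with over 80 CPM of Myl7 it was 0.20, where the smallest attainable p of 0.00794 left it at an adjusted p of 0.0595.

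The promoters of the pair are shown because the ratio of their transcripts differed between the groups. Each is the stretch of the 250 bases upstream of the RefSeq start on GRCm38.p6 that lies outside the gene's span in the deposited table, which for Got2 leaves 104 bases, and is read 5′ to 3′ on the gene's minus strand: chr19:43524606-43524855 for Got1 and chr8:95888548-95888651 for Got2. Capitals mark the estrogen-related receptor element AAGGTCA and CCAAT boxes on either strand.
Got1: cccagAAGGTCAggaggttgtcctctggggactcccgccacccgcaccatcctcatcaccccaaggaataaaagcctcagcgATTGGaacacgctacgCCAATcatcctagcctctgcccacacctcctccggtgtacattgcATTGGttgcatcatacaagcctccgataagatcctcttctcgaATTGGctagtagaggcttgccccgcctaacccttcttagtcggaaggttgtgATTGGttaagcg
Got2: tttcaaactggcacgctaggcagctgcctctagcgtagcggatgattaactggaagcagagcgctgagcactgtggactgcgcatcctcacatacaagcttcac
The Got1 window holds that element once and 5 CCAAT boxes. The Got2 stretch holds none of the letters searched, which says nothing about the factors that may bind there.

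Me3 and Adhfe1 complete the TCA group, and both fell in both treated groups. Me3, a mitochondrial malic enzyme that makes pyruvate and NADPH from malate, had 44.6, 53.3 and 56.2 CPM with isoproterenol and minocycline, 51.0, 54.2 and 57.4 with isoproterenol, and 57.7, 62.1 and 66.4 in control. Neither treated group overlapped control, with log2 fold changes of -0.24 ± 0.0574 (adjusted p = 0.00555) with isoproterenol and minocycline and -0.19 ± 0.0574 (adjusted p = 0.0308) with isoproterenol; the call with isoproterenol was lost without Isoproterenol 3, Control 3, Control 4 or Control 6, at adjusted p = 0.0576 to 0.0738. That call was also lost without the filter on low counts. Adhfe1, a hydroxyacid-oxoacid transhydrogenase that uses 2-oxoglutarate, had 36.0, 50.6 and 60.4 CPM with isoproterenol and minocycline, 46.9, 49.7 and 59.1 with isoproterenol, and 57.0, 69.7 and 72.5 in control. Its fold lower was 1.39 with isoproterenol and minocycline (adjusted p = 0.00222) and 1.32 with isoproterenol (adjusted p = 0.0108), and in each treated group the highest library passed the lowest control.

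In branched-chain amino acid breakdown, 13 of 18 genes fell with isoproterenol and minocycline and 7 of 18 with isoproterenol, with median log2 fold changes of -0.29 with isoproterenol and minocycline and -0.19 with isoproterenol. In the TCA group 10 of 20 fell with isoproterenol and minocycline (median -0.23) and 9 of 20 with isoproterenol (median -0.18). Whether the branched-chain genes differed from the TCA genes was not tested.

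Transamination and the BCKDH complex, the first steps of the pathway, had 3 of 4 genes called in each comparison with control. Bcat2, the mitochondrial aminotransferase, had 54.6, 57.9 and 69.0 CPM with isoproterenol and minocycline, 54.8, 58.4 and 61.4 with isoproterenol, and 66.4, 73.9 and 77.6 in control. With isoproterenol every library was below control (-0.33 ± 0.0592, adjusted p = 0.000879); with isoproterenol and minocycline 1 library, at 69.0 CPM, reached into the control range (-0.30 ± 0.0590, adjusted p = 0.00135). Bckdha, the E1 alpha subunit of BCKDH (chr7:25629946-25658981, minus strand), had 125, 152 and 175 CPM with isoproterenol and minocycline, 149, 157 and 183 with isoproterenol, and 196, 205 and 218 in control. Neither treated group overlapped control, with log2 fold changes of -0.44 ± 0.0683 (adjusted p = 0.000133) with isoproterenol and minocycline and -0.35 ± 0.0683 (adjusted p = 0.00163) with isoproterenol.

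Dbt, the E2 core of the same complex (chr3:116513070-116549981, plus strand), had 12.8, 22.9 and 31.9 CPM with isoproterenol and minocycline, 19.6, 26.6 and 29.7 with isoproterenol, and 32.7, 40.8 and 46.2 in control. The treated groups lay wholly below control, and the isoproterenol and minocycline libraries spread most, with an SD of 31.9% of the mean, the widest of all 38 genes in any group. The log2 fold changes, -0.86 ± 0.172 (adjusted p = 0.002) with isoproterenol and minocycline and -0.68 ± 0.171 (adjusted p = 0.0147) with isoproterenol, were the largest of the list. They correspond to levels 1.82 times lower than control with isoproterenol and minocycline and 1.6 times lower with isoproterenol. Bckdhb, the E1 beta subunit, passed in neither comparison at 26.9, 32.7 and 35.2 CPM with isoproterenol and minocycline, 27.3, 31.3 and 34.0 with isoproterenol, and 30.7, 35.5 and 38.9 in control, with estimates of -0.16 ± 0.0720 (adjusted p = 0.125) with isoproterenol and minocycline and -0.18 ± 0.0722 (adjusted p = 0.105) with isoproterenol. In control hearts the authors' TPM averaged 155 for Bckdha, 28.3 for Bckdhb and 17.5 for Dbt.

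Neither regulator of the complex passed in any comparison. Bckdk, the kinase that inhibits BCKDH, had 51.7, 60.7 and 74.5 CPM with isoproterenol and minocycline, 57.8, 65.7 and 72.2 with isoproterenol, and 65.8, 69.4 and 74.0 in control. Ppm1k, the phosphatase that activates it, had 30.6, 41.4 and 52.9 CPM with isoproterenol and minocycline, 40.0, 47.7 and 54.5 with isoproterenol, and 43.3, 48.1 and 56.3 in control. All groups overlapped for both. The estimates for Bckdk were -0.20 ± 0.0750 (adjusted p = 0.0661) with isoproterenol and minocycline and -0.10 ± 0.0750 (adjusted p = 0.437) with isoproterenol, and those for Ppm1k were -0.23 ± 0.118 (adjusted p = 0.184) with isoproterenol and minocycline and -0.03 ± 0.118 (adjusted p = 0.883) with isoproterenol. The ratio of kinase to phosphatase counts was 1.21, 1.47 and 1.74 with isoproterenol and minocycline, 1.14, 1.41 and 1.52 with isoproterenol, and 1.22, 1.5 and 1.56 in control, and none of its 3 differences passed (lowest exact permutation p = 0.318).

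The ratio of the kinase to its target differed from control, where Bckdha fell and Bckdk was not called. The ratio of Bckdk to Bckdha counts was 0.354, 0.410 and 0.432 with isoproterenol and minocycline, 0.380, 0.399 and 0.438 with isoproterenol, and 0.323, 0.337 and 0.357 in control. The isoproterenol libraries lay wholly above control, while with isoproterenol and minocycline the lowest library was inside the control range. The mean log2 ratio was higher than in control by 0.24 with isoproterenol and minocycline (exact permutation p = 0.00433, adjusted 0.0216) and by 0.26 with isoproterenol (exact permutation p = 0.00216, adjusted 0.013). The mean log2 ratio of Dbt to Bckdha differed from control by -0.47 with isoproterenol and minocycline and by -0.33 with isoproterenol (adjusted exact permutation p = 0.0433 for each). That of Bckdha to Bckdhb differed from control by -0.29 with isoproterenol and minocycline (adjusted exact permutation p = 0.0216). Without isoproterenol and minocycline libraries 4 and 6 it was -0.24 and no longer passed (adjusted p = 0.0649), nor did that of Dbt to Bckdha with isoproterenol and minocycline (-0.25, adjusted p = 0.118) or with isoproterenol (-0.33, adjusted p = 0.0519). The Dbt to Bckdha difference with isoproterenol and minocycline was also lost, at adjusted p = 0.0649 to 0.0949, without Isoproterenol and minocycline 1, 4 or 6 or Control 1, 3, 4, 5 or 6. With isoproterenol it was lost without Isoproterenol 1, 3, 5 or 6 or Control 1, 3, 4, 5 or 6, at adjusted p = 0.0541 to 0.0949.

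**Figure D3:**
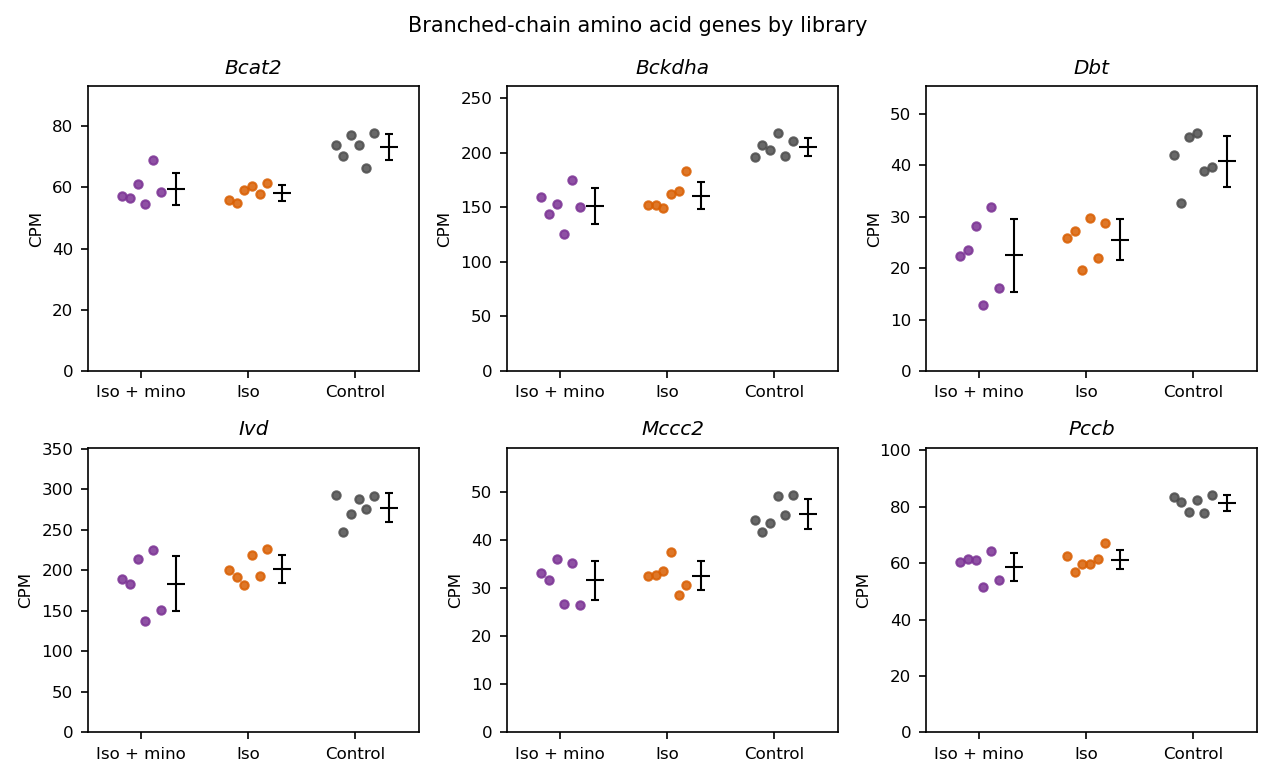
CPM in each library (points; y axis starts at 0) of 6 branched-chain amino acid genes in isoproterenol and minocycline, isoproterenol and control, with the mean and SD of 6 libraries beside each group. The control points stand above both treated groups for Bckdha, Dbt, Ivd, Mccc2 and Pccb; for Bcat2, 1 isoproterenol and minocycline library reaches them.

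All 4 genes of the leucine branch fell with isoproterenol and minocycline and 2 of 4 with isoproterenol. Ivd, isovaleryl-CoA dehydrogenase, had 137, 186 and 225 CPM with isoproterenol and minocycline, 182, 197 and 227 with isoproterenol, and 247, 282 and 293 in control. It lay below control in every treated library, with log2 fold changes of -0.60 ± 0.0961 (adjusted p = 0.000209) with isoproterenol and minocycline and -0.46 ± 0.0960 (adjusted p = 0.0034) with isoproterenol. Mccc2, the beta subunit of the biotin-dependent methylcrotonyl-CoA carboxylase, had 26.6, 32.5 and 36.0 CPM with isoproterenol and minocycline, 28.5, 32.6 and 37.6 with isoproterenol, and 41.6, 44.6 and 49.3 in control. It too separated from control in both treated groups, with log2 fold changes of -0.53 ± 0.0809 (adjusted p = 0.000125) with isoproterenol and minocycline and -0.48 ± 0.0810 (adjusted p = 0.000498) with isoproterenol.

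Its partner Mccc1, the biotin-carrying alpha subunit, had 49.8, 67.2 and 80.04 CPM with isoproterenol and minocycline, 66.8, 68.7 and 77.5 with isoproterenol, and 69.7, 81.7 and 86.7 in control. The call with isoproterenol and minocycline (-0.29 ± 0.0935, adjusted p = 0.0355) was lost without Isoproterenol and minocycline 2, 4 or 6 or Control 1, 3, 4, 5 or 6, at adjusted p = 0.0536 to 0.0856, and the isoproterenol estimate was -0.18 ± 0.0935, adjusted p = 0.209. The Mccc1 call was also lost in a fit of the 12 libraries compared, without the 4 Myl7 libraries and on library totals. The ratio of Mccc1 to Mccc2 counts was 1.87, 2.09 and 2.22 with isoproterenol and minocycline, 2.04, 2.10 and 2.53 with isoproterenol, and 1.67, 1.79 and 1.85 in control. Neither treated group overlapped control, and the mean log2 ratio was higher by 0.23 with isoproterenol and minocycline and by 0.30 with isoproterenol (exact permutation p = 0.00216, adjusted 0.013, for each). Auh, methylglutaconyl-CoA hydratase, had 39.1, 49.0 and 53.3 CPM with isoproterenol and minocycline, 50.5, 55.6 and 59.9 with isoproterenol, and 55.2, 61.4 and 67.7 in control. It fell with isoproterenol and minocycline (-0.33 ± 0.0712, adjusted p = 0.00279), where no library reached control, and the isoproterenol estimate was -0.14 ± 0.0711, adjusted p = 0.223.

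In the valine and isoleucine branches 3 of 5 genes fell with isoproterenol and minocycline and none with isoproterenol. Hibadh, hydroxyisobutyrate dehydrogenase, had 110.3, 132 and 149.5 CPM with isoproterenol and minocycline, 128, 141 and 156 with isoproterenol, and 140.0, 165 and 173 in control. Aldh6a1, methylmalonate semialdehyde dehydrogenase, had 73.8, 104 and 151 CPM with isoproterenol and minocycline, 103, 125 and 139.6 with isoproterenol, and 112, 148 and 159 in control. Hibch, hydroxyisobutyryl-CoA hydrolase, had 37.1, 44.4 and 59.6 CPM with isoproterenol and minocycline, 47.8, 54.9 and 58.2 with isoproterenol, and 53.3, 57.5 and 59.7 in control. For all 3 the upper libraries of both treated groups lay in the control range. The log2 fold changes with isoproterenol and minocycline were -0.28 ± 0.0725, adjusted p = 0.0093 for Hibadh, -0.44 ± 0.147, adjusted p = 0.0423 for Aldh6a1 and -0.27 ± 0.0905, adjusted p = 0.0411 for Hibch. The Hibadh call was lost without isoproterenol and minocycline libraries 4 and 6 (-0.21, adjusted p = 0.0601), without the 4 Myl7 libraries (-0.26, adjusted p = 0.0658) and on library totals (-0.18, adjusted p = 0.0573). The calls of Aldh6a1 and Hibch were each lost without any 1 of Isoproterenol and minocycline 1, 2, 4 or 6 or Control 1, 3, 4, 5 or 6, at adjusted p = 0.0568 to 0.0973 for Aldh6a1 and 0.0550 to 0.0992 for Hibch. With isoproterenol the estimates for the 3 genes were between -0.24 and -0.08, with adjusted p-values of 0.101 to 0.615. Acadsb, the short/branched-chain acyl-CoA dehydrogenase of isoleucine, had 58.9, 82.1 and 88.9 CPM with isoproterenol and minocycline, 66.0, 78.8 and 88.8 with isoproterenol, and 81.4, 90.9 and 96.1 in control, and Acad8, the isobutyryl-CoA dehydrogenase of valine, had 19.6, 21.3 and 23.7 CPM with isoproterenol and minocycline, 21.0, 23.2 and 26.0 with isoproterenol, and 23.6, 24.1 and 25.3 in control. Neither passed (adjusted p = 0.0916 with isoproterenol and minocycline and 0.196 with isoproterenol for Acadsb and 0.0667 with isoproterenol and minocycline and 0.666 with isoproterenol for Acad8).

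On the route from propionyl-CoA to the TCA cycle all 3 genes fell with isoproterenol and minocycline and 2 of 3 with isoproterenol. Pccb, the beta subunit of propionyl-CoA carboxylase (chr9:100982032-101034898, minus strand), had 51.4, 60.8 and 64.1 CPM with isoproterenol and minocycline, 56.9, 60.6 and 67.1 with isoproterenol, and 77.7, 82.1 and 84.2 in control. A wide gap separated control from both treated groups, and its adjusted p-values were the smallest of the list, with log2 fold changes of -0.47 ± 0.0576 (adjusted p = 1.22e-05) with isoproterenol and minocycline and -0.41 ± 0.0576 (adjusted p = 7.47e-05) with isoproterenol. Pcca, the biotin-carrying alpha subunit, had 37.9, 47.6 and 53.7 CPM with isoproterenol and minocycline, 46.2, 48.8 and 54.2 with isoproterenol, and 54.2, 60.9 and 66.4 in control. Both treated groups lay below control, isoproterenol by less than the third digit shown, with log2 fold changes of -0.35 ± 0.0772 (adjusted p = 0.00355) with isoproterenol and minocycline and -0.27 ± 0.0773 (adjusted p = 0.0259) with isoproterenol; the second call was lost without Isoproterenol 3, Isoproterenol 5, Control 4 or Control 6, at adjusted p = 0.0524 to 0.0726. About 16.7% as many counts as those of Pcca came from Ggact on the opposite strand, which overlaps it over 241 exon bases, and whether the counting used strand is not given in the sources used here. Mcee, methylmalonyl-CoA epimerase, had 31.6, 33.9 and 35.3 CPM with isoproterenol and minocycline, 31.6, 37.6 and 38.7 with isoproterenol, and 35.8, 41.0 and 44.6 in control. It separated from control with isoproterenol and minocycline (-0.27 ± 0.0627, adjusted p = 0.00452) and not with isoproterenol (-0.16 ± 0.0627, adjusted p = 0.104).

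The promoter of Pccb, the gene with the smallest adjusted p, is shown as the 236 bases of the 250 upstream of its RefSeq start that lie outside the deposited gene span, GRCm38.p6 chr9:101034899-101035134, 5′ to 3′ on the minus strand. Capitals mark a match to the NRF1 motif, searched on both strands as GCGCA, any base, then GCGC.
Pccb: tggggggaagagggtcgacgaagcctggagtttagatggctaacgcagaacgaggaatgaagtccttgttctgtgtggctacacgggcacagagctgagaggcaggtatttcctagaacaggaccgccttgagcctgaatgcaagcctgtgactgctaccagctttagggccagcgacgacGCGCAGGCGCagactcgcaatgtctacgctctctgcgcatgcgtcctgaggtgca
The motif occurs in 3.74% of all windows and in 3 of the 45 windows of the listed genes (6.67%), those of Sucla2, Hibadh and Pccb.

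In isoproterenol and minocycline versus isoproterenol none of the 38 genes passed, where 0.0527% of all genes did, 7 genes in all. An unadjusted p under 0.05 was reached by 3 of the 38, against 7.60% of all genes; these were Auh, Sucla2 and Hibch, each with a log2 fold change between -0.20 and -0.19 and adjusted p-values of 0.524, 0.576 and 0.648. DESeq2 called 34 genes in this comparison and none of the 38. The estimates lay between -0.20 and 0.13, with a median of -0.08 and standard errors of 0.0478 to 0.173, and 30 of 38 were below 0. On library totals the median was -0.12 and 36 of 38 were below 0, and on both scales 30 of 38 lay below the median of all genes. Against the control mean, isoproterenol and minocycline libraries 4 and 6 had log2 medians over the 38 genes of -0.58 and -0.44. Libraries 1, 2, 3 and 5 of that group had -0.22, -0.31, -0.16 and -0.08, and the isoproterenol libraries -0.29 to -0.11. Without libraries 4 and 6, only the signs of Got1 and Got2 were checked, and that of Got2 changed, to 0.059. The treated groups overlapped for all 38, where 0.158% of all genes did not overlap with isoproterenol and minocycline lower and 0.188% with it higher. The Got1 to Got2 ratio was the only 1 of the 10 ratios that passed between the treated groups. Of the 30 ratio tests 12 passed after adjustment and 13 had an unadjusted p under 0.05. The mean log2 ratio of Sucla2 to Suclg2 differed from control by -0.16 with isoproterenol and minocycline (adjusted exact permutation p = 0.0216), a difference lost without Control 1 or Control 6 at adjusted p = 0.0505. With isoproterenol it differed by -0.105 (adjusted exact permutation p = 0.0325), lost without Control 1, 2 or 6 at adjusted p = 0.0541 to 0.0649. The ratios Idh1 to Idh2, Mdh1 to Mdh2 and Pcca to Pccb passed in no comparison.

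**Figure D4:**
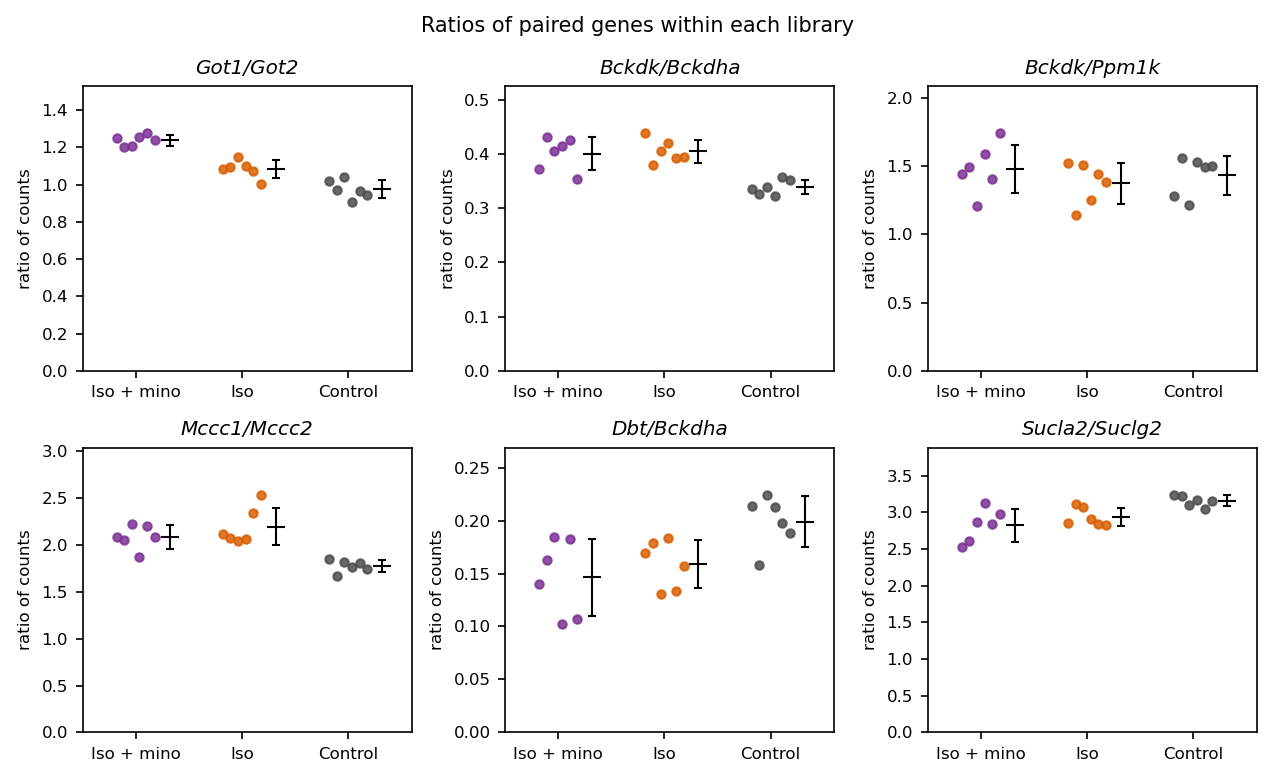
Ratio of the counts of 2 genes in each library (points; y axis starts at 0) for 6 pairs in isoproterenol and minocycline, isoproterenol and control, with the mean and SD of 6 libraries beside each group. The Got1/Got2 ratio lies highest in isoproterenol and minocycline, at 1.2 to 1.27, and lowest in control, at 0.909 to 1.04, while the Bckdk/Ppm1k ratio overlaps in all 3 groups.

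The isoproterenol and minocycline group spread most, with libraries 4 and 6 low and library 5 high. The coefficient of variation over 6 libraries had a median of 13.3% across the 38 genes with isoproterenol and minocycline, 7.48% with isoproterenol and 6.45% in control. Isoproterenol and minocycline 4 was the lowest of its group for 31 of 38 genes and library 6 for 4 of them, with medians of -0.58 and -0.44 on the log2 scale against the control mean; library 5 was the highest for 27 genes, with a median of -0.08. The same libraries 4 and 6 had the lowest Ryr2, at 611 and 636 CPM against 867 to 1255 CPM in the other 4. Pln was lowest there too, at 2313 and 2391 CPM against 3018 to 3651 CPM. The remaining genes among the 9 cardiomyocyte markers spread less over the group, with Actn2 at 1558 to 1788.5 and Myh6 at 21772 to 28288 CPM. The sum of the 9 was 56104 and 53781 CPM in libraries 4 and 6, against 56660 to 64317 CPM in the other 4. With isoproterenol that sum was 54804 to 59278 CPM. The part of this in the results was not tested. Without libraries 4 and 6, 17 of 38 genes were called lower than control with isoproterenol and minocycline. The calls of Idh3b, Suclg2, Mccc1, Hibch, Hibadh and Aldh6a1 were lost. Fewer of all genes were called lower there too, as given at the end. In the isoproterenol group the library medians lay between -0.29 and -0.11, and in control between -0.13 and 0.06.

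**Figure D5:**
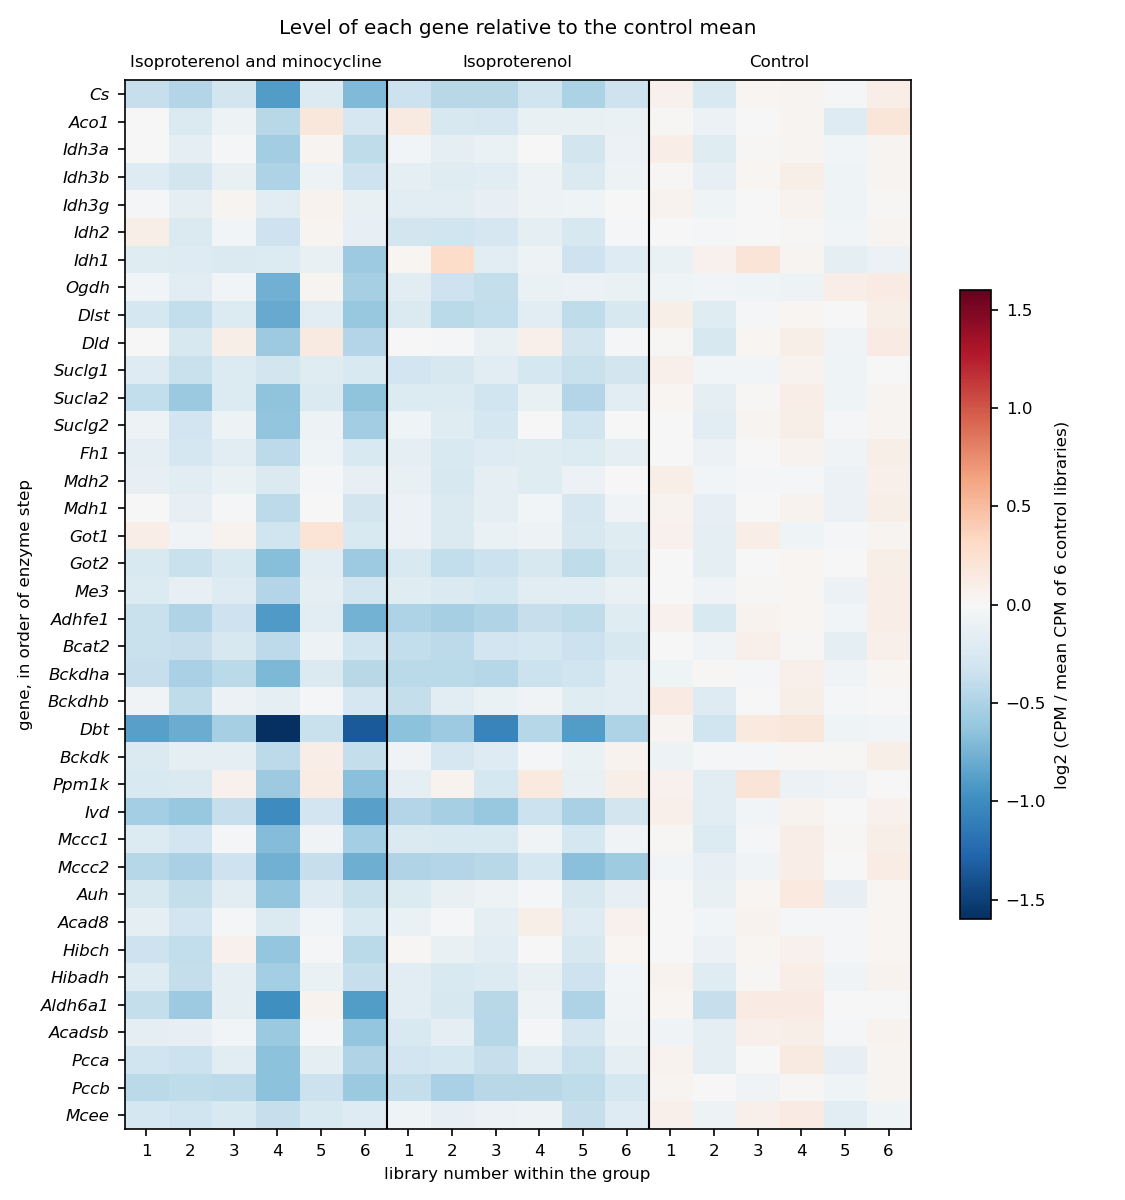
Log2 of the CPM in each library over the mean CPM of the 6 control libraries (colour), for the 38 genes in order of enzyme step (rows) and the libraries of isoproterenol and minocycline, isoproterenol and control (columns). Blue is below the control mean; isoproterenol and minocycline 4 and 6 are the bluest columns, with medians of -0.58 and -0.44, and Dbt is the bluest row.

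A further 31 genes of the same and neighbouring pathways came from a list drawn up with the 38. They include genes of fatty acid oxidation, lysine breakdown and transport, and a transcription factor. With isoproterenol and minocycline 15 fell and 3 rose, where 9.05% of all genes tested were called lower and 10.2% higher. With isoproterenol 8 fell and 2 rose, where 5.62% of all genes were called lower and 6.94% higher. None of the 31 passed between the treated groups. In the cycle itself, the succinate dehydrogenase iron-sulphur subunit Sdhb fell in both, with a log2 fold change of -0.15 in each comparison. Sdha, the flavoprotein subunit, was called only with isoproterenol and minocycline, at -0.32 (adjusted p = 0.0257), against an estimate of -0.28 (adjusted p = 0.0628) with isoproterenol. The subunit genes Sdhc and Sdhd passed in neither. Their adjusted p-values were 0.208 and 0.543 with isoproterenol and minocycline and 0.241 and 0.570 with isoproterenol.

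The largest change was that of Ogdhl, a paralogue of Ogdh. It had 44.3, 51.5 and 69.4 CPM with isoproterenol and minocycline, 43.9, 58.6 and 64.6 with isoproterenol, and 113, 127 and 145 in control. The treated groups lay far below control, with log2 fold changes of -1.27 ± 0.104 (SE; adjusted p = 7.23e-08) with isoproterenol and minocycline and -1.16 ± 0.104 (adjusted p = 3.65e-07) with isoproterenol. Dhtkd1, a 2-oxoadipate dehydrogenase of lysine breakdown, also fell in both, at 2.42 to 4.26 CPM with isoproterenol and minocycline, 2.82 to 3.80 with isoproterenol and 3.17 to 7.61 in control.

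Both subunits of the mitochondrial trifunctional protein of fatty acid oxidation, Hadha and Hadhb, fell in both comparisons. Hadhb, the thiolase subunit, had 495, 692 and 806 CPM with isoproterenol and minocycline, 672, 770.1 and 819 with isoproterenol, and 995, 1120 and 1323 in control. No treated library reached control, with log2 fold changes of -0.76 with isoproterenol and minocycline (adjusted p = 3.16e-05) and -0.59 with isoproterenol (adjusted p = 0.000597). Also called in both were its partner Hadha, the acetoacetyl-CoA thiolase Acat1, the isoleucine dehydrogenase Hsd17b10 and the malate-aspartate shuttle carrier Slc25a13. With isoproterenol and minocycline their log2 fold changes were -0.63, -0.47, -0.25 and -0.60, and with isoproterenol -0.54, -0.40, -0.37 and -0.43, in that order of genes. Echs1, the short-chain enoyl-CoA hydratase that serves fatty acid and branched-chain oxidation, passed in neither, at -0.16 (adjusted p = 0.129) with isoproterenol and minocycline and -0.12 (adjusted p = 0.296) with isoproterenol. Slc25a12, a paralogue of Slc25a13, did not pass either, at -0.11 with isoproterenol and minocycline and -0.12 with isoproterenol.

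Called lower only with isoproterenol and minocycline were the methylmalonyl-CoA mutase gene Mut (-0.62, adjusted p = 0.0121), Me1 (-0.36), D2hgdh (-0.32), Mmab (-0.31), Slc25a11 (-0.22) and Glud1 (-0.22); none of these differed from isoproterenol in the test of that difference. Slc3a2, the heavy chain of the amino acid exchanger, rose in both, at 37.98, 40.6 and 45.4 CPM with isoproterenol and minocycline, 31.9, 38.6 and 42.8 with isoproterenol, and 26.4, 32.1 and 34.6 in control. Its light chain Slc7a5, which takes up branched-chain amino acids, rose with isoproterenol (0.57, adjusted p = 0.0446). With isoproterenol and minocycline its estimate was 0.32 (adjusted p = 0.24), and the citrate carrier Slc25a1 and the cytosolic aminotransferase Bcat1 rose by 0.55 and 1.03. Bcat1 was at 0.863 to 2.55 CPM with isoproterenol and minocycline, 0.697 to 2.07 with isoproterenol and 0.348 to 1.31 in control. Klf15, a transcription factor known to favour branched-chain amino acid breakdown in heart muscle, passed in neither comparison, at -0.19 with isoproterenol and minocycline and -0.18 with isoproterenol. The mitochondrial branched-chain carrier Slc25a44 did not pass either, at -0.03 with isoproterenol and minocycline and -0.07 with isoproterenol.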

How the data were processed

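Left-ventricular polyA RNA was read in 18 libraries, 6 per group, as paired reads of 150 bases, which were trimmed in CLC Genomics Workbench 21.0.3, per the labels' protocols. edgeR appears in the submitters' processing notes with no role given. For mapping settings, genome build, annotation, use of strand and reads that map to several genes, the entry is: not given in the sources used here. Whole-number counts per gene come from the authors' deposited table, and the authors' deposited TPM values were used only to order genes by level. Columns were matched to libraries by the number in the description field, and 0 per-sample columns were left unmatched.

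Counts were fitted in edgeR 4.0.16 (R 4.3.3) over all 18 libraries with filterByExpr, TMM factors and a robust quasi-likelihood fit, 1 mean per group, 2-sided, with Benjamini-Hochberg adjustment over the 13281 genes kept, which hold 99.931 to 99.954% of each library's counts. The fit was tested on simulated counts. Ratios of 10 gene pairs were compared by 2-sided exact permutation of the mean log2 ratio over all regroupings of 6 against 6 libraries and adjusted over 30 tests; a ratio of counts depends on gene length, so only its difference between groups is read. DESeq2 1.42.0, limma 3.58.1 (voom), other scalings, filters and left-out libraries were alternatives. Library pairs within a group differed by more than counting noise (chi-square per degree of freedom 5.57 to 35.4).

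The 38 genes, the further pathway genes, the markers and the pairs were chosen with earlier results of these data known, and some further pathway genes are not reported here. From each enzyme step up to 3 called genes, every gene called with isoproterenol and minocycline and 1 gene not called were to be given in full. GENCODE release M21 (GRCm38) holds all 38 identifiers, 32 with the same start and end. Promoter sequences are RefSeq's, GRCm38.p6; 35 of the 38 symbols matched an entry.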

Additional observations from a re-analysis of the deposited data

Results flagged for a closer look

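Each of the 38 genes and 10 ratios was checked in each group for 1 library far from the other 5, by the gap to its nearest neighbour as a share of the group's range, with a limit of 0.625. Of 144 such groups 3 passed, and chance alone passes about 1 in 20. Idh1 in Isoproterenol and minocycline 6 was at 23.5 CPM, against 30.0 to 32.6 CPM in the other libraries of its group, a share of 0.707. Aco1 in Isoproterenol 1 was at 31.3 CPM, against 23.5 to 26.2 CPM in the others, a share of 0.659. Aldh6a1 in Control 2 was at 112 CPM, against 146 to 159 CPM in the others, a share of 0.711, and its call with isoproterenol and minocycline was not lost when Control 2 was left out.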

How the results depend on the processing

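None of the 38 genes was called higher in any setting. Called lower in all 30 alternatives were 14 genes with isoproterenol and minocycline (Adhfe1, Ivd, Dbt, Suclg1, Bckdha, Bcat2, Got2, Pccb, Cs, Dlst, Auh, Mccc2, Sucla2 and Pcca) and 4 with isoproterenol (Bckdha, Bcat2, Pccb and Mccc2). Leaving out the 4 libraries with over 80 CPM of Myl7, leaving out Isoproterenol and minocycline 4 and 6, an atrial covariate and library totals were chosen after seeing the data.

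With isoproterenol and minocycline versus isoproterenol, where 7 genes were called, the count was 34 by DESeq2, 2 in a fit of the 12 libraries compared, 1 without the 4 Myl7 libraries, 13 without libraries 4 and 6, and 11 on library totals. Without the 4 Myl7 libraries, isoproterenol and minocycline versus control had 1369 genes called, 613 of them lower, and 9 further pathway genes, and isoproterenol versus control had 681, 309 lower, 5 of the 38 and 6 further pathway genes; 0 ratios passed, with a smallest attainable p of 0.00794. Without libraries 4 and 6, isoproterenol and minocycline versus control had 1441 genes called, 687 lower, and 11 further pathway genes. On library totals, isoproterenol and minocycline versus control had 545 genes called lower (19.0% of its calls, against 47.0% after TMM) and 14 of the 38; isoproterenol versus control had 2932 called, 243 lower (8.29% of its calls, against 44.8% after TMM), and 7 of the 38. Where the libraries are fewer, so is the power; other causes were not tested.

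Leaving out 1 library gave 1789 to 2930 genes called (832 to 1429 lower), 19 to 28 of the 38 and 13 to 19 further genes with isoproterenol and minocycline versus control; 1079 to 1877 (499 to 857 lower), 10 to 17 and 6 (without Control 3) to 11 with isoproterenol versus control; and 1 to 13, 0 and 0 between the treated groups. Between 8 and 12 ratios passed.

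Changes of sign were looked for in all estimates against control. Between the treated groups they were looked for in Got1 and Got2 and, for all 38 genes, only across the scalings. The estimates found to change sign were all uncalled. For Got1 with isoproterenol and minocycline versus control they were 0.0231 by limma-voom, 0.0888 without libraries 4 and 6, 0.0284 without 4, 0.0152 without 6 (-0.0799 to 0.0284 over all single libraries left out) and 0.0771 on library totals. Without libraries 4 and 6, Dld gave 0.000721 against control and Got2 0.0590 against isoproterenol. In isoproterenol versus control, Dld gave 0.00726 without the Myl7 libraries, and Ppm1k 0.0114 without Isoproterenol 3 and 0.0102 without Control 3 (-0.0771 to 0.0114 over all single libraries left out). On library totals, Idh3g, Suclg1, Mdh2, Mdh1, Bcat2 and Bckdhb, above 0 in isoproterenol and minocycline versus isoproterenol after TMM, were below 0. On the same scale, Idh2 and Idh3g gave 0.00900 and 0.0409 with isoproterenol and minocycline versus control. In isoproterenol versus control they were 0.0648 for Hibch, 0.0766 for Idh1, 0.0300 for Aco1, 0.00964 for Mdh2, 0.109 for Ppm1k, 0.00172 for Suclg2, 0.0487 for Bckdk, 0.0936 for Acad8, 0.0317 for Idh3a, 0.00496 for Mdh1, 0.0835 for Dld, 0.00644 for Auh and 0.0438 for Idh3g.

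No paired analysis was possible because the labels give the groups no shared replicate numbers. Each of the 38 genes had at least 235 counts in every library.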
